A study of Mus musculus with 9 samples.

Results

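Interferon-stimulated genes and their regulators were followed in MyC-CaP cells, a line of mouse prostate tumor cells that carry a MYC transgene, after treatment with neuregulin 1 (NRG1), a ligand of the receptor HER3. The members are a list of 51 mouse genes written by name from general knowledge of the interferon response. They were chosen with earlier results of these data known. Of the 51 genes, 48 had a row among the 15552 protein-coding genes of the table. Enough counts to be tested were found for 43 of them, out of 11373 genes tested in all. Values for Mx2, Zbp1 and Cmpk2 were not analysed here. Recombinant NRG1 was given at 15 ng/mL for 0, 12 or 24 h, with 3 libraries per time point labelled as biological replicates, and all 3 groups had first been kept in medium without serum or calcium. All cells came from 1 established line. Time with NRG1 and time in the starvation medium rose together over the 3 groups and cannot be told apart in any comparison.

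Interferons are secreted proteins that bind receptors on the cell surface and activate the kinases JAK1 and TYK2, which phosphorylate transcription factors of the STAT family, among them STAT2. Together with IRF9 these form a complex that binds a DNA element in the promoters of interferon-stimulated genes, whose products sense viral RNA, block its translation, degrade it or tag proteins with ISG15. IRF7 is both a product of this response and a driver of it, since it turns on interferon genes. Many of these genes are also expressed at a low level in cells that have met no virus, cancer cells included.

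The DNA element recognized by the STAT and IRF complex is the interferon-stimulated response element, whose core was searched as GAAA, any 2 bases and GAAA again. Of the 48 genes, 41 had a promoter sequence from RefSeq (build GRCm38.p6), a window from 250 bases before to 50 bases after each annotated start, and 19 of these 41 genes, or 46.3%, held the core on either strand. Among all 27025 genes with such a window the share was 3.99%, and among 9052 tested genes outside the list it was 3.41%. Counted by window, 36.8% of the 57 member windows and 3.44% of all 32851 windows held it. A second core, TTCNNNGAA, that of the gamma-activated sequence, was in 10 of the 41 genes, or 24.4%, against 9.55% of all genes with a window. The stretches below are shown because they carry this response element core before the start of genes that were at least 1.5-fold higher at 24 h than at 12 h. Capitals mark the core, and runs of overlapping cores are marked as 1 stretch. On the gene's own strand it reads as a repeat of TTTC in the first 3 genes and of GAAA in Oas3.
Apol9b, chr15:77729005-77729065, plus strand: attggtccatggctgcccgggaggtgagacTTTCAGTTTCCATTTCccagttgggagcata
Apol9a, chr15:77411109-77411169, minus strand: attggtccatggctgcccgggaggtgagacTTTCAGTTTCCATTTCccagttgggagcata
Ifit1, chr19:34640755-34640828, plus strand: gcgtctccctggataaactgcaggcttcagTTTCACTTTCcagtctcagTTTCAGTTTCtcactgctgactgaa
Oas3, chr5:120777710-120777764, minus strand: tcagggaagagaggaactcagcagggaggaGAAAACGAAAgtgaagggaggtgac

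The stretches of Apol9a and Apol9b are the same letters at separate places on chromosome 15, and the 250 bases before their RefSeq starts share an unbroken run of 231 bases. The GENCODE models of both genes begin inside the printed stretch. In Oas3 the core ended 65 bases before the RefSeq start, and in Ifit1 the cores ended 75 and 94 bases before it. Ddx58 held the core in its window but not wholly within the 250 bases before its start. Irf7, Oasl2 and Xaf1 held no copy in this window. The core was present in 8 of 14 genes that passed the test as higher at 24 h than at 12 h and in 9 of 22 tested genes that did not pass, and it was in 7 of 19 abundant and 10 of 18 less abundant tested genes.

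Libraries held between 28467089 and 39239760 counts, and 3 counts corresponded to between 0.0764 and 0.106 CPM (counts scaled to library size after TMM normalization). Markers of the labelled epithelial-like cell type were uneven, with Foxa1 at a mean of 286 CPM, while Cdh1 and Epcam were near 0 at 0.0470 and 0.00997 CPM as means over the 9 libraries. Summed, the 7 listed epithelial markers lay between 3285 and 4012 CPM over all libraries. The largest count of a single marker in a library was 134911, most of the sum there. The sum therefore does not describe the 7 markers evenly. Of 5 tested epithelial markers, 2 passed as higher at 12 h against 0 h, where 13.6% of all tested genes did. The 2 were Krt8 at 0.30 (adjusted p = 0.0169) and Hoxb13 at 0.28 (adjusted p = 0.000168) on the log2 scale. Krt8 was also higher at 24 h than at 0 h, at 0.34 (adjusted p = 0.0107), and Hoxb13 was lower at 24 h than at 12 h, at -0.18 (adjusted p = 0.0227), and the part of these changes in the results was not tested. Summed markers of fibroblasts stayed between 15.3 and 18.01 CPM over all libraries, those of leukocytes between 0.390 and 1.14 CPM, and those of endothelium between 0 and 0.359 CPM. Mitochondrial genes took 1.41 to 1.498% of counts at 0 h, 1.12 to 1.18% at 12 h and 1.21 to 1.36% at 24 h, and the part of this in the results was not tested. At 12 h, replicate 3 stood apart from the other two, with chi-square values per degree of freedom of 10.2 and 10.3 against 3.40 to 7.64 for the other 7 replicate pairs. For comparisons with 12 h, the counts of members that passed or were called in the main direction, and the medians over all tested members, are therefore also given without it. Counts in the other direction and values by expression level are not given separately without it.

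The 43 tested genes covered a wide range of levels, from Rtp4 at 0.275 CPM to Samhd1 at 387 CPM as means over the 9 libraries. Of these, 22 averaged at least 10 CPM and are called abundant here, with a median of 43.8 CPM, and the other 21 had a median of 1.41 CPM. Samhd1, Isg20 and Rnf213 alone took between 46.9 and 53.1% of the counts of the whole list in a library. On a scale of CPM per kb of exon, Isg20 was highest at 0 h at 114, followed by Bst2 at 51.8 and Samhd1 at 47.6. The length used is that of all annotated exons of a gene merged, not that of a single mRNA. For Irf7 it was 3776 bases, the whole span of the gene, so ranks between genes on this scale are only approximate. The transcription factor genes lay lower on the same scale at 0 h, with Irf1 at 13.6, Stat2 at 4.39, Irf9 at 2.20 and Irf7 at 0.410. Less RNA per cell and fewer expressing cells cannot be told apart in these bulk libraries.

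Among the transcription factors, Irf7, Irf9 and Stat2 were lower at 12 h than at 0 h and higher at 24 h than at 12 h, whereas Irf1 did not pass the test in any comparison. Irf7 (ENSMUSG00000025498.15, chr7:141262706-141266481, minus strand) measured 1.28, 1.45 and 1.92 CPM in the 0 h libraries, 0.922, 0.933 and 0.979 CPM at 12 h, and 3.21, 2.84 and 2.45 CPM at 24 h. No library of one time point overlapped those of another, and the order was 12 h, 0 h, 24 h. These values came from 29 to 98 counts per library. The log2 fold change was 1.57 (95% interval 1.16 to 1.99, adjusted p = 0.000402) from 12 to 24 h, a 2.98-fold difference, and 0.85 (SE 0.193, adjusted p = 0.00523) from 0 to 24 h. The fall at 12 h against 0 h was -0.72 (SE 0.229, adjusted p = 0.0286) and no longer passed without 0 h replicate 3, 12 h replicate 1 or 12 h replicate 2, with adjusted p up to 0.133.

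Irf9 (ENSMUSG00000002325.15, chr14:55603571-55610030, plus strand), the DNA-binding partner of STAT2, measured 11.8, 11.5 and 12.2 CPM at 0 h, 9.66, 8.27 and 7.50 CPM at 12 h, and 12.5, 12.0 and 12.9 CPM at 24 h. Every 12 h library lay below every other library, while the 0 h and 24 h ranges overlapped. The log2 fold change was -0.48 (SE 0.0928, adjusted p = 0.00122) at 12 h against 0 h and 0.55 (SE 0.0921, adjusted p = 0.00233) at 24 h against 12 h. Stat2 (ENSMUSG00000040033.16, chr10:128270559-128292849, plus strand) measured 26.6, 26.1 and 25.4 CPM at 0 h, 20.4, 19.9 and 18.8 CPM at 12 h, and 26.7, 26.2 and 26.6 CPM at 24 h. The 12 h libraries were again the lowest, and 24 h differed from 0 h by 0.03 on the log2 scale (95% interval -0.08 to 0.13). Its log2 fold change was -0.40 (SE 0.0561, adjusted p = 6.67e-05) at 12 h against 0 h and 0.43 (SE 0.0559, adjusted p = 0.000359) at 24 h against 12 h.

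Irf1 (ENSMUSG00000018899.16, chr11:53770014-53778374, plus strand), a factor that also answers interferon gamma, measured 58.1, 53.1 and 51.2 CPM at 0 h, 51.9, 46.4 and 47.6 CPM at 12 h, and 50.9, 54.1 and 52.2 CPM at 24 h. Its 3 time points overlapped. The log2 fold change at 12 h against 0 h was -0.15 (95% interval -0.26 to -0.04), with an adjusted p of 0.0528.

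**Figure D1:**
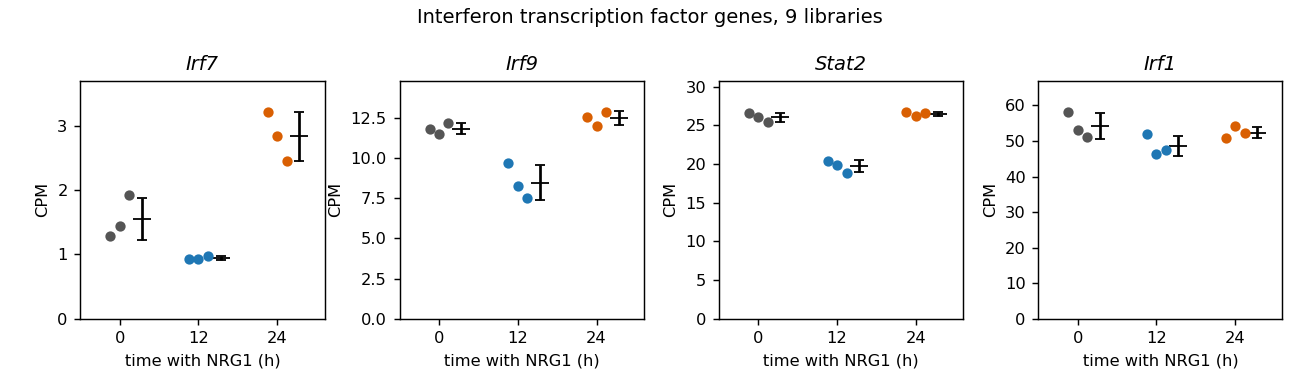
CPM after TMM scaling (y axis, linear from 0) of Irf7, Irf9, Stat2 and Irf1 by time with NRG1 in h (x axis), where each point is 1 of 9 libraries and the black mark gives the mean ± SD (n = 3). The 12 h points of Irf7, Irf9 and Stat2 lie below all others, with Irf7 between 0.922 and 0.979 CPM, while those of Irf1 overlap the other time points.

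At 12 h against 0 h, members moved mostly down. Of the 43 tested genes, 14 (16 without 12 h replicate 3) passed an adjusted p of 0.05 as lower, against a background of 11.9% of all tested genes, and 1 passed as higher, against 13.6%. The genes that fell were Irf7, Irf9, Stat2, Ddx58, Oasl2, Apol9b, Ifit1, Ifit2, Ifi27, Parp14, Lgals9, Samhd1, Znfx1 and Uba7, and the one that rose was Isg20. In 9 of these 14 genes the mean level was at least 10 CPM, of 22 such members, where 13.5% of all tested genes of that level passed as lower. With the added requirement of a 1.5-fold change, 3 genes were called lower (Irf7, Oasl2 and Apol9b) against a background of 0.958%, and 0 were called higher against 1.34%. The number called lower depended on single libraries, being 1 without 0 h replicate 1 or 0 h replicate 3, 0 without 12 h replicate 2 and 5 without 12 h replicate 3. The median log2 fold change of the members was -0.25, against -0.0028 over all tested genes, -0.17 without 0 h replicate 2 and -0.27 without 12 h replicate 3. Without 0 h replicate 2, 2 members, not 1, passed as higher.

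From 12 to 24 h the direction turned. Of the 43 tested genes, 16 passed as higher, against a background of 1.97%, and 1 passed as lower, against 3.06%. The genes that rose were Irf7, Irf9, Stat2, Ddx58, Adar, Eif2ak2, Oasl2, Oas3, Ifit1, Ifit2, Apol9a, Apol9b, Xaf1, Ifi27, Parp14 and Bst2, and the one that fell was Isg20. A positive log2 fold change was found for 41 of 43, where 50.9% of all tested genes had one, and in 28 members every 24 h library lay above every 12 h library, against 11.4% of all tested genes. The 41 include Rtp4, at 0.93, which entered the test only with its 24 h libraries counted. At 1.5-fold, 8 members were called higher (Irf7, Oasl2, Oas3, Apol9a, Apol9b, Xaf1, Ifit1 and Ddx58), against a background of 0.202%, which was 23 genes in all, and 0 were called lower, against 0.0879%. The number that passed as higher was 10 without 12 h replicate 1, 12 h replicate 2 or 24 h replicate 2, and 18 without 12 h replicate 3. The number called at 1.5-fold was 5 without 12 h replicate 2 or 24 h replicate 1 and 10 without 12 h replicate 3, and Isg20 no longer passed as lower without 12 h replicate 1. The comparison shares the 12 h libraries with the one before it, so a low 12 h value enters both.

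The median change of the members was larger in the less abundant ones, and this difference was not tested. The SE of the fold changes was also mostly larger in them, and the median of all tested genes was not split by level. From 12 to 24 h the median log2 fold change was 0.34 over all 43 tested members (0.39 without 12 h replicate 3), 0.19 over the 22 abundant ones and 0.69 over the 21 less abundant ones, against 0.0023 over all tested genes. In number, 9 of 22 abundant members passed as higher, where 2.21% of all tested genes of that level did, and 7 of 21 less abundant members passed, where 1.23% did. Of the 8 genes called at 1.5-fold, only Ddx58 was abundant. Rtp4, which entered the test only with its 24 h libraries counted, is among the 21 less abundant members.

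**Figure D2:**
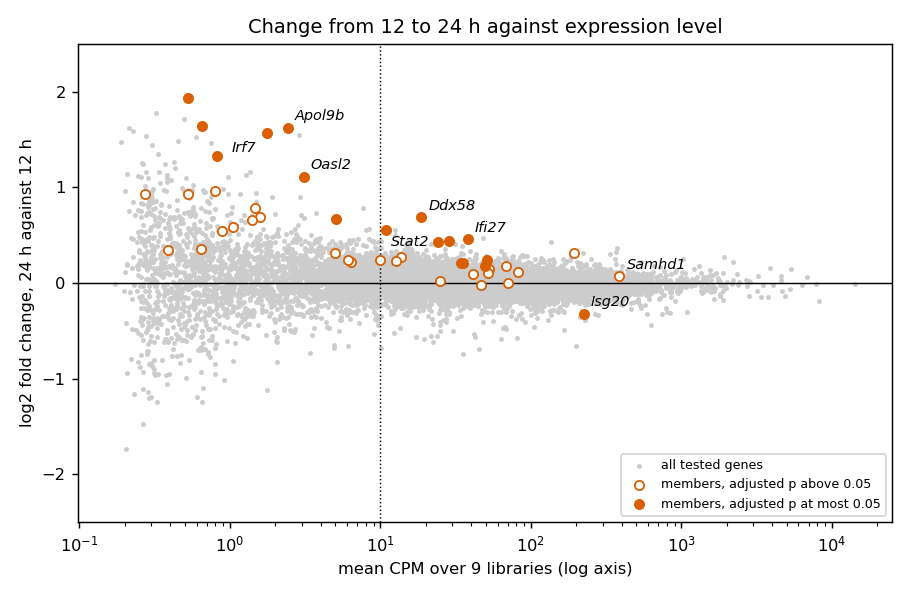
Log2 fold change from 12 to 24 h (y axis) against mean CPM over 9 libraries (x axis, log scale) for all 11373 tested genes (grey) and the 43 tested members (orange, filled where adjusted p is at most 0.05), with a dotted line at 10 CPM. Members lie mostly above 0, Irf7 at 1.57 and Ddx58 at 0.69, with Isg20 the filled point below 0 at -0.32.

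RNA sensors were led by Ddx58 (ENSMUSG00000040296.15, chr4:40203773-40239828, minus strand), which encodes RIG-I, a detector of viral RNA in the cytoplasm. Its level was 20.9, 17.99 and 19.1 CPM at 0 h, 14.5, 13.9 and 13.7 CPM at 12 h, and 21.2, 24.0 and 22.7 CPM at 24 h. The 3 time points did not overlap. The log2 fold change was -0.46 (SE 0.0733, adjusted p = 0.000236) at 12 h against 0 h and 0.69 (SE 0.0721, adjusted p = 0.000151) at 24 h against 12 h. At 24 h against 0 h it was 0.23 (adjusted p = 0.0292), which no longer passed without 0 h replicate 2 or 3 or 24 h replicate 2 or 3. Adar, an RNA-editing enzyme, and Eif2ak2, the kinase PKR that halts translation, both rose by 0.21 on the log2 scale from 12 to 24 h (adjusted p = 0.0258 and 0.0320), though 16.8% of the exonic bases of Adar overlap a gene on the opposite strand. Each of these calls was lost when one of several single libraries was left out, with adjusted p up to 0.131 for Adar and 0.119 for Eif2ak2. Dhx58, a relative of RIG-I, measured 0.193 to 0.4998 CPM with a log2 fold change of 0.34 from 12 to 24 h and did not pass.

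In the OAS family, enzymes that activate the RNA-degrading RNase L and related proteins without that activity, 2 of the 3 tested genes rose from 12 to 24 h. Oasl2 (ENSMUSG00000029561.17, chr5:114896936-114912234, plus strand) measured 3.23, 3.21 and 2.67 CPM at 0 h, 1.93, 1.80 and 2.19 CPM at 12 h, and 3.996, 4.70 and 4.10 CPM at 24 h. None of the time points overlapped. It differed on the log2 scale by -0.62 (SE 0.158, adjusted p = 0.0081) at 12 h against 0 h, 1.11 (SE 0.151, adjusted p = 0.000441) at 24 h against 12 h and 0.49 (adjusted p = 0.0225) at 24 h against 0 h, the last not passing without 0 h replicate 3 or 24 h replicate 2. Oas3 (ENSMUSG00000032661.9, chr5:120753098-120777661, minus strand) had 9, 28 and 12 counts at 0 h, 7, 3 and 12 counts at 12 h, and 27, 33 and 30 counts at 24 h. The 24 h libraries, at 0.884, 0.987 and 0.764 CPM, lay above all others. A log2 fold change of 1.94 from 12 to 24 h had a 95% interval of 1.08 to 2.79 (adjusted p = 0.0170), and the call was lost without 12 h replicate 1 or 2 or 24 h replicate 1 or 2. Oasl1 measured 0.772 to 2.54 CPM and did not pass, with a log2 fold change of 0.69.

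The IFIT genes encode proteins that bind foreign RNA and block its translation. Ifit1 (ENSMUSG00000034459.8, chr19:34640871-34650009, plus strand) measured 4.79, 5.84 and 4.56 CPM at 0 h, 3.74, 3.92 and 4.18 CPM at 12 h, and 5.90, 6.40 and 6.44 CPM at 24 h. The 12 h libraries were lowest and the 24 h libraries highest. Ifit1 rose on the log2 scale by 0.67 (SE 0.121, adjusted p = 0.00459) from 12 to 24 h, and its change was -0.37 (SE 0.125, adjusted p = 0.0395) at 12 h against 0 h, a call lost without 0 h replicate 2, 12 h replicate 1 or 2 or 24 h replicate 2 and under DESeq2 (adjusted p = 0.0714). Ifit2 (ENSMUSG00000045932.12, chr19:34550694-34576419, plus strand), the most abundant of the family, measured 53.1, 52.8 and 57.4 CPM at 0 h, 44.3, 47.1 and 45.5 CPM at 12 h, and 52.2, 55.4 and 54.1 CPM at 24 h. Its 12 h libraries lay below both other groups, which overlapped. The log2 fold change was -0.25 (SE 0.0480, adjusted p = 0.000957) at 12 h and 0.24 (SE 0.0479, adjusted p = 0.00844) from 12 to 24 h, the latter lost without 12 h replicate 1 or 24 h replicate 2. Ifit3 and Ifit3b, at 0.726 to 1.86 CPM, had log2 fold changes of 0.65 and 0.59 from 12 to 24 h that did not pass, and 31.6% and 27.4% of their 100-base windows occur in another gene, so reads can be divided between them.

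Apol9a and Apol9b, apolipoprotein L genes induced by interferon, also share sequence, with 36.6% of the 100-base windows of Apol9b found in another gene. Apol9b (ENSMUSG00000068246.6, chr15:77729039-77736382, plus strand) measured 2.02, 2.03 and 2.06 CPM at 0 h, 0.866, 1.25 and 1.73 CPM at 12 h, and 3.83, 4.58 and 3.39 CPM at 24 h. The time points did not overlap, and the 12 h libraries were spread more widely than those at 0 h. Apol9b rose on the log2 scale by 1.63 (SE 0.207, adjusted p = 0.00029) from 12 to 24 h and 0.94 (SE 0.190, adjusted p = 0.00228) at 24 h against 0 h, while the value of -0.68 at 12 h against 0 h (adjusted p = 0.0353) was lost without any one of the 0 h libraries or without 12 h replicate 1 or 2. Apol9a (ENSMUSG00000057346.12, chr15:77403789-77411135, minus strand) had 9, 26 and 12 counts at 0 h, 17, 8 and 11 counts at 12 h, and 40, 25 and 55 counts at 24 h. Scaled for depth, the 24 h libraries were above all others. Apol9a rose on the log2 scale by 1.64 (adjusted p = 0.0167) from 12 to 24 h, lost without 12 h replicate 2 or 24 h replicate 1 or 3, and 1.31 (adjusted p = 0.0153) from 0 to 24 h, lost without 0 h replicate 1 or 3 or 24 h replicate 1 or 3.

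Gbp2 and Gbp3 encode guanylate-binding proteins, GTPases that act against pathogens inside the cell. Gbp3 (ENSMUSG00000028268.14, chr3:142560026-142573209, plus strand) measured 0.781, 1.13 and 0.697 CPM at 0 h, 0.503, 0.515 and 0.522 CPM at 12 h, and 0.983, 1.32 and 0.739 CPM at 24 h. All 12 h libraries were below the others, and 0 h and 24 h overlapped. The log2 fold changes of -0.77 and 0.96 at these steps did not pass (adjusted p = 0.0899 and 0.0880). Xaf1 (ENSMUSG00000040483.15, chr11:72301629-72313733, plus strand), a pro-apoptotic gene induced by interferon, measured 0.852, 0.473 and 0.581 CPM at 0 h, 0.447, 0.579 and 0.522 CPM at 12 h, and 1.08, 1.97 and 0.866 CPM at 24 h. The 24 h libraries lay above all others, with replicate 2 highest. Its log2 fold change was 1.33 (SE 0.349, adjusted p = 0.0358) from 12 to 24 h, lost without 12 h replicate 1 or 2 or 24 h replicate 1 or 2, and 1.06 (adjusted p = 0.0374) from 0 to 24 h, lost without 0 h replicate 2 or 3 or 24 h replicate 2 and under DESeq2 (adjusted p = 0.0539).

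**Figure D3:**
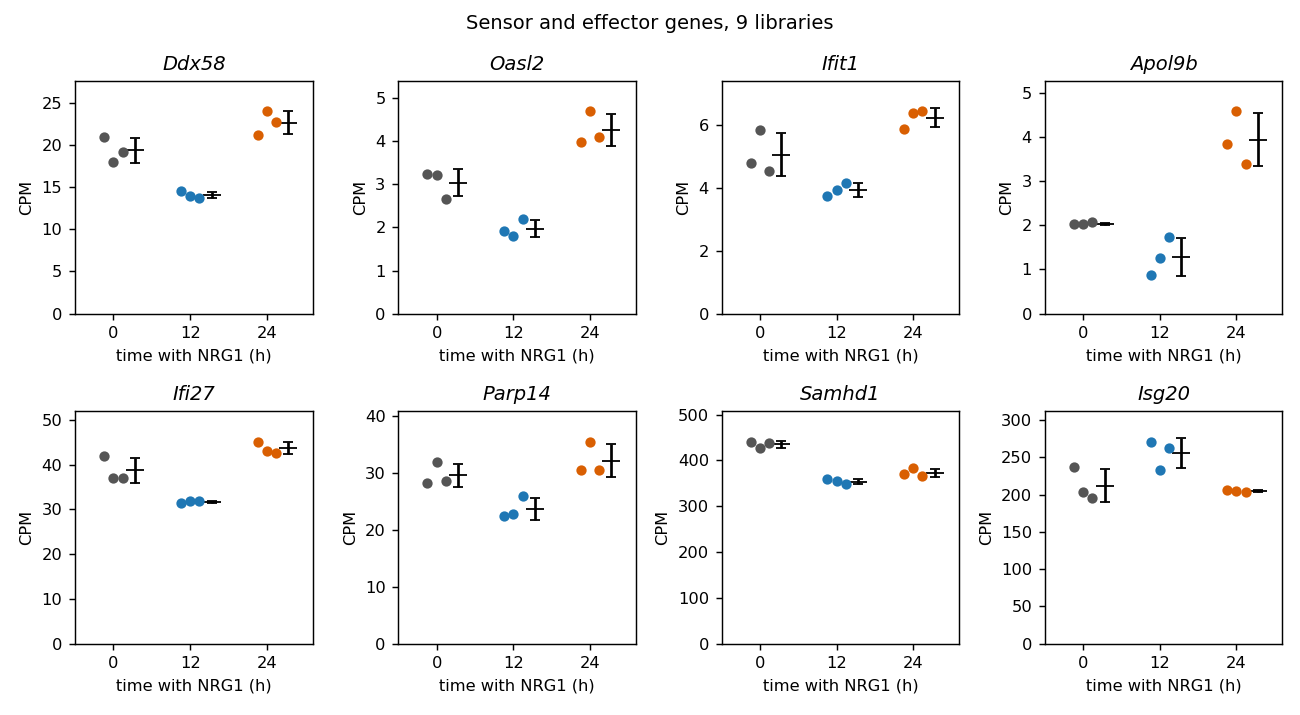
CPM after TMM scaling (y axis, linear from 0) of 8 sensor and effector genes by time with NRG1 in h (x axis), where each point is 1 of 9 libraries and the black mark gives the mean ± SD (n = 3). Ddx58, Oasl2, Ifit1, Apol9b and Ifi27 are lowest at 12 h and highest at 24 h, Samhd1 stays below its 0 h level, and Isg20 is highest on average at 12 h at 255 CPM.

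Among the abundant effectors, Ifi27 (ENSMUSG00000064215.13, chr12:103434211-103440239, plus strand), a small membrane protein, measured 42.0, 37.0 and 37.0 CPM at 0 h, 31.5, 31.9 and 31.8 CPM at 12 h, and 45.1, 43.1 and 42.6 CPM at 24 h. The 12 h libraries were nearly equal and the lowest. For Ifi27 the log2 fold change was -0.28 (SE 0.0551, adjusted p = 0.0012) at 12 h against 0 h and 0.46 (SE 0.0546, adjusted p = 0.000199) from 12 to 24 h. Parp14 (ENSMUSG00000034422.14, chr16:35832874-35871544, minus strand), an ADP-ribosyltransferase, measured 28.3, 31.9 and 28.5 CPM at 0 h, 22.4, 22.9 and 25.9 CPM at 12 h, and 30.5, 35.5 and 30.5 CPM at 24 h. Its 12 h libraries were again below all others. The log2 fold change was -0.32 (SE 0.0755, adjusted p = 0.00485) at 12 h and 0.44 (SE 0.0749, adjusted p = 0.00284) from 12 to 24 h. Its neighbor genes Parp9 and Dtx3l, whose products form an ADP-ribosylating ubiquitin ligase, had log2 fold changes of -0.02 and 0.10 from 12 to 24 h and did not pass.

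Samhd1 and Isg20, the members with the highest CPM, followed other courses. Samhd1 (ENSMUSG00000027639.16, chr2:157097533-157135265, minus strand), which depletes the nucleotides that viruses need, measured 441, 427 and 438 CPM at 0 h, 358, 355 and 348 CPM at 12 h, and 370.1, 383 and 365 CPM at 24 h. Both later time points lay below 0 h, with log2 fold changes of -0.30 (SE 0.0339, adjusted p = 1.04e-05) and -0.22 (SE 0.0339, adjusted p = 0.000183), and the step of 0.07 from 12 to 24 h did not pass. Isg20 (ENSMUSG00000039236.18, chr7:78913424-78920396, plus strand), an RNA exonuclease, measured 237, 204 and 195 CPM at 0 h, 271, 232 and 262 CPM at 12 h, and 206, 204 and 204 CPM at 24 h. The 12 h and 0 h ranges overlapped, whereas the 24 h libraries lay below all 12 h libraries. It rose by 0.27 on the log2 scale at 12 h (SE 0.0625, adjusted p = 0.00454) and changed by -0.32 (SE 0.0625, adjusted p = 0.00741) from 12 to 24 h, and the latter no longer passed without 12 h replicate 1 (adjusted p = 0.0563). Lgals9 (ENSMUSG00000001123.15, chr11:78962974-78984946, minus strand), the lectin galectin-9, measured 75.2, 73.3 and 79.3 CPM at 0 h, 62.0, 62.3 and 55.2 CPM at 12 h, and 69.2, 64.2 and 69.8 CPM at 24 h. These 3 ranges did not overlap, with 12 h lowest and 0 h highest. Its log2 fold change was -0.34 (SE 0.0527, adjusted p = 0.000159) at 12 h and -0.16 (SE 0.0522, adjusted p = 0.0376) at 24 h against 0 h, the latter lost without 0 h replicate 1 or 3 or any one 24 h library.

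The ISG15 system attaches the ubiquitin-like protein ISG15 to other proteins. Isg15 (ENSMUSG00000035692.7, chr4:156199455-156200796, minus strand) measured 10.1, 14.3 and 11.6 CPM at 0 h, 13.0, 12.4 and 13.8 CPM at 12 h, and 15.8, 15.4 and 16.3 CPM at 24 h. The 24 h libraries lay above all others, and 0 h and 12 h overlapped. Its log2 fold change was 0.39 (SE 0.0992, adjusted p = 0.0116) at 24 h against 0 h, a call lost without 0 h replicate 1 or 24 h replicate 3, and 0.27 at 24 h against 12 h (adjusted p = 0.124). Herc6, the ligase of the mouse system, rose by 0.56 (adjusted p = 0.0108) at 24 h against 0 h, a call lost without 24 h replicate 2, and 13.7% of its exonic bases overlap another gene on the same strand. Uba7, the activating enzyme, changed by -0.55 (adjusted p = 0.00613) at 12 h against 0 h. Usp18, which removes ISG15, measured 0.225 to 0.852 CPM and had a log2 fold change of 0.93 from 12 to 24 h that did not pass.

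At 24 h against 0 h, 11 members passed as higher, against a background of 9.67%, and 2, Samhd1 and Lgals9, passed as lower, against 7.76%. The higher genes were Irf7, Oasl2, Apol9a, Apol9b, Xaf1, Herc6, Isg15, Ddx58, Bst2, Ifi27 and Eif2ak2. Ifi27, at 0.18 (adjusted p = 0.0311), no longer passed without 0 h replicate 2 or 3 or any one 24 h library, with adjusted p up to 0.119. Eif2ak2, at 0.16 (adjusted p = 0.0437), no longer passed without any one 0 h library, 12 h replicate 1 or 24 h replicate 2 or 3, with adjusted p up to 0.154, nor under DESeq2 (adjusted p = 0.0580). Bst2, known as tetherin for holding virus particles at the cell surface, differed by 0.21 (SE 0.0502, adjusted p = 0.00877), and by 0.18 (adjusted p = 0.0487) at 24 h against 12 h, a call lost without any one of the 12 h or 24 h libraries or 0 h replicate 2. At 1.5-fold 4 were called higher, Irf7, Apol9a, Apol9b and Xaf1, against a background of 1.68%, and 0 were called lower, against 0.589%. The number that passed as higher was 5 without 0 h replicate 3 or 24 h replicate 2 and 6 without 24 h replicate 3, the number called at 1.5-fold was 2 without 0 h replicate 3, and the number lower was 1 without 0 h replicate 1 or 3 or any one 24 h library. The median log2 fold change was 0.16 over all 43 tested members, 0.01 over the abundant ones and 0.49 over the less abundant ones, against -0.0065 over all tested genes.

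**Figure D4:**
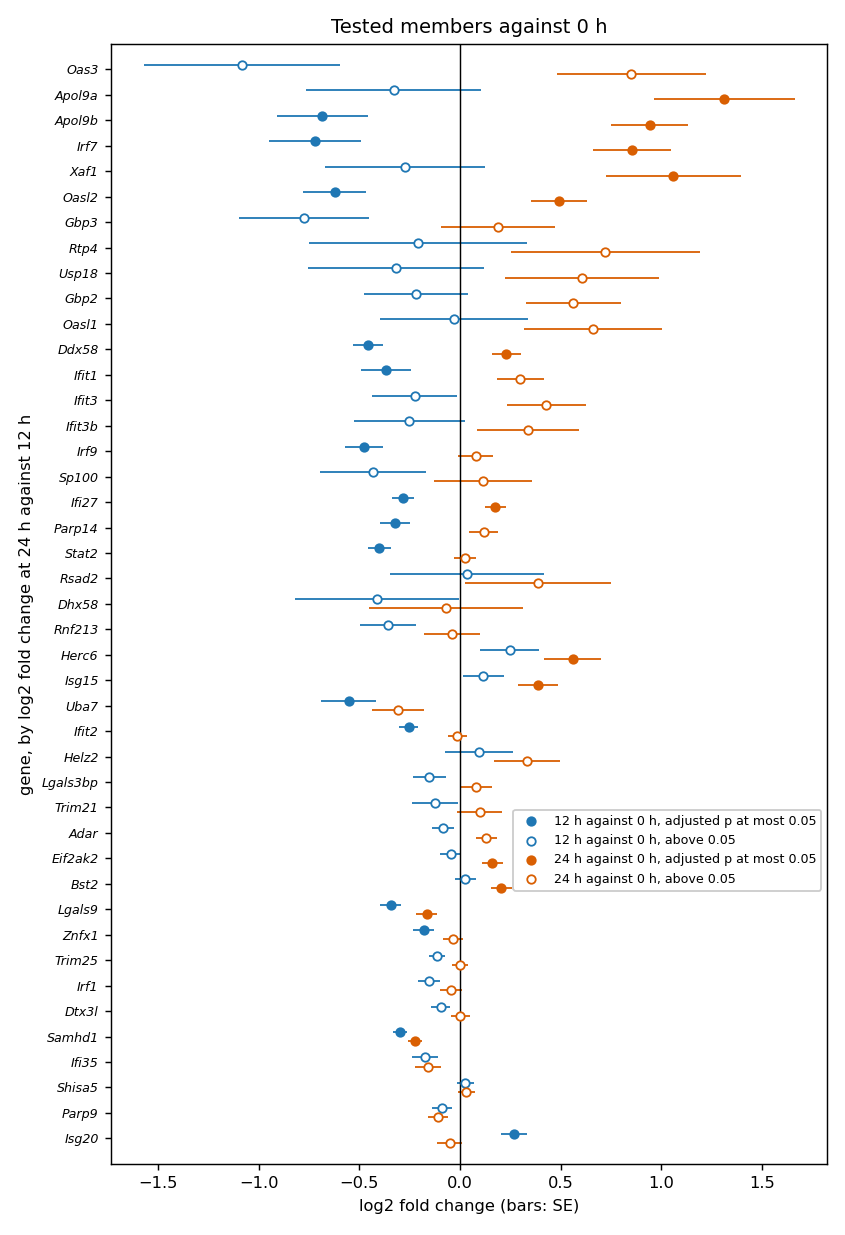
Log2 fold change against 0 h (x axis, bars give the SE) at 12 h (blue) and 24 h (orange) for the 43 tested members, ordered on the y axis by their change from 12 to 24 h, where filled points passed an adjusted p of 0.05. Filled blue points lie below 0 except for Isg20 at 0.27, and filled orange points lie above 0 except for Samhd1 and Lgals9.

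A direct comparison of 12 h with the mean of 0 and 24 h was also made. It can pass without both a fall before and a rise after 12 h. Samhd1 passed as lower at -0.19 (adjusted p = 0.000481) although its step from 12 to 24 h did not pass. Adar passed as lower at -0.15 (adjusted p = 0.0346) although its change at 12 h against 0 h did not. Of the 43 tested genes 18 passed as lower, against a background of 7.08%, and 1, Isg20, passed as higher, against 9.57%. At 1.5-fold 5 were called lower, Irf7, Oasl2, Apol9b, Oas3 and Gbp3, against a background of 0.343%, while 0 were called higher, against 0.22%. Without 12 h replicate 2, 12 passed as lower and 3 were called, and without 12 h replicate 3, 16 passed and 5 were called. The median log2 fold change was -0.36, and it was -0.27 without 12 h replicate 2 and -0.31 without 12 h replicate 3. The lowest adjusted p-values were those of Ddx58, at -0.57 (SE 0.0641, adjusted p = 2.8e-05), and Stat2, at -0.41 (SE 0.0492, adjusted p = 4.98e-05). Gbp3, at -0.87 (SE 0.282, adjusted p = 0.0447), lost its call without any of 0 h replicates 1 and 2, the 12 h libraries or 24 h replicates 1 and 2 and under DESeq2 (adjusted p = 0.0660), and Oas3, at -1.51 (adjusted p = 0.0198), without 0 h replicate 2 or 12 h replicate 1 or 2. Rnf213, a large ubiquitin ligase, measured 137 and 135 CPM in 12 h replicates 1 and 2 but 223 CPM in replicate 3, and did not pass at -0.34 (adjusted p = 0.0730).

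Averaged per library over the 43 tested genes, log2 CPM relative to the 0 h mean was 0 ± 0.0993 (SD, n = 3) at 0 h, -0.24 ± 0.0791 at 12 h and 0.25 ± 0.0261 at 24 h. The 3 ranges did not overlap. Over the 22 abundant genes the means were -0.18 ± 0.0272 at 12 h and 0.04 ± 0.0158 at 24 h. Over the 21 less abundant genes they were -0.31 ± 0.139 and 0.48 ± 0.0525. The averages over the 43 and the 21 genes include Rtp4, which entered the test only with its 24 h libraries counted.

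**Figure D5:**
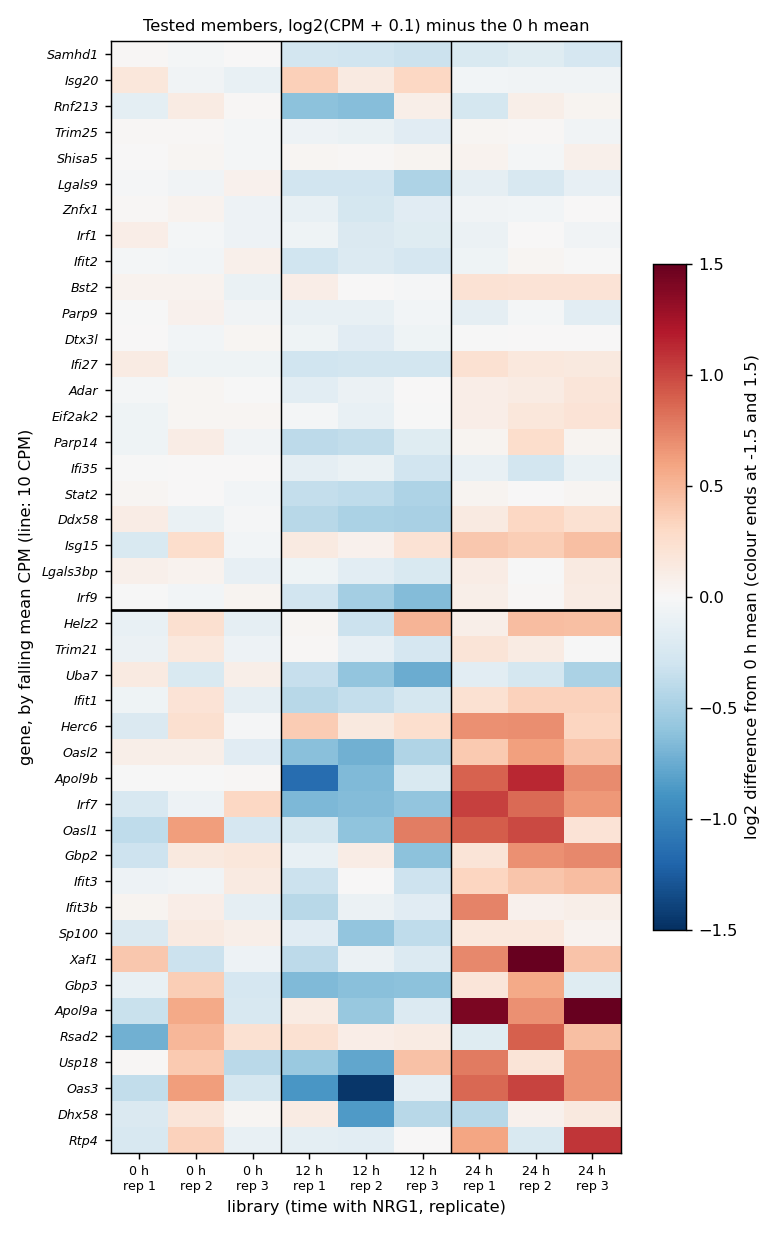
Log2(CPM + 0.1) minus the mean of the 0 h libraries (color, ending at -1.5 and 1.5) for the 43 tested members (rows, by falling mean CPM, with a line at 10 CPM) in each of the 9 libraries (columns, by time with NRG1 and replicate). The 12 h columns are mostly blue and the 24 h columns mostly red below the line, while Rnf213 in 12 h replicate 3 differs from the other two 12 h libraries.

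Of the members not tested for lack of counts, Oas1a had 1 to 19 counts per library, Oas2 1 to 8 and Ifi44 0 to 7. Ifih1, which encodes the RNA sensor MDA5, had 3 counts in 0 h replicate 1 and 0 in every other library, and Parp12 had 1 count in all. When these 5 genes were kept in the fit by applying no filter, none passed, with a lowest adjusted p of 0.157. Of the tested members, 37 were above the filter's threshold of 0.300 CPM in all 9 libraries, and 1, Rtp4, entered only with its 24 h libraries counted, being above it in 1 library at 0 h, 0 at 12 h and 2 at 24 h.

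Other genes of the pathway were taken from fixed lists. Of 15 genes on a list of interferons and related cytokines, 5 had a row (Ifnab, Ifne, Ifnk, Ifnz and Il6) and 0 had enough counts to be tested. Of 10 tested genes for receptors and their kinases and STAT partners, 2 passed as higher from 12 to 24 h. Among all tested genes the share was 1.97%. The 2 were Jak2 at 0.18 (SE 0.0349, adjusted p = 0.00618) and Tyk2 at 0.19 (adjusted p = 0.00934). Ifnar1 and Ifnar2, the receptor chains for type I interferon, were at 76.8 and 13.3 CPM and had log2 fold changes of 0.03 and 0.03 from 12 to 24 h that did not pass.

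Neither the 8 tested interferon regulatory factor and related genes outside the member list nor the 16 tested sensing adaptors and kinases had a gene past the threshold from 12 to 24 h, where 1.97% of all tested genes passed as higher and 3.06% as lower. In the latter list 2 of 16 genes passed as lower and 1 as higher at 12 h against 0 h. Among all tested genes the shares were 11.9% and 13.6%. The lower ones were Ikbke, a kinase that activates IRF factors, at -0.47 (adjusted p = 0.00315) and Myd88 at -0.25 (adjusted p = 0.0204). The higher one was Cgas, the sensor of cytosolic DNA, at 0.36 (adjusted p = 0.0364). Of 19 tested negative regulators, 1 passed from 12 to 24 h, the deubiquitinase gene Cyld at 0.20 (adjusted p = 0.0314).

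A further list of 40 tested interferon-stimulated genes had 10 lower and 3 higher at 12 h against 0 h, where 11.9% and 13.6% of all tested genes passed, and 5 higher and 1 lower from 12 to 24 h, where 1.97% and 3.06% passed. The 5 were Ccl5, a chemokine, at 1.55 (SE 0.181, adjusted p = 0.000182), Gbp7 at 0.73 (adjusted p = 0.00978), Plscr2 at 0.55 (adjusted p = 0.00473), Irgm1 at 0.23 (adjusted p = 0.0200) and Mov10 at 0.23 (adjusted p = 0.0128), and the 1 was Nampt at -0.19 (adjusted p = 0.00732). Ccl5 measured 1.87 ± 0.311 CPM at 0 h, 1.71 ± 0.228 CPM at 12 h and 4.98 ± 0.931 CPM at 24 h (SD, n = 3). Genes of MHC class I antigen presentation, many of them inducible by interferon gamma, had 3 of 18 lower at 12 h (background 11.9%) and 0 of 18 past the threshold from 12 to 24 h (background 1.97% higher and 3.06% lower), where the median of their log2 fold changes was 0.05. Whether these lists differ from the members was not tested.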

How the data were processed

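Total RNA was extracted, mRNA libraries were prepared, and paired-end reads were trimmed with cutadapt, aligned with STAR to GRCm38.p6 and counted per gene with featureCounts, as stated in the submitters' processing notes and the study's methods. The authors deposited raw counts, 1 column per library, without normalization. Whether counting used strand is not given in the sources used here, so overlapping genes may share reads.

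Time points in the labels gave the groups. Low counts were removed with filterByExpr, and the rest scaled by TMM and fitted for all 9 libraries in edgeR 4.0.16 (R 4.3.3), with two-sided quasi-likelihood F-tests and Benjamini-Hochberg adjustment over 11373 genes. "Passed" means an adjusted p of at most 0.05, and "called" adds a 1.5-fold change, the study's thresholds. SE is the log2 fold change over the root of F. Replicates are labelled biological, and p-values measure the spread between these libraries. The study's methods state that cells were plated in triplicate, and whether these were independent cultures is not given. Members and lists were chosen with earlier results of these data known. Values in every library are given for Irf7, Irf9, Irf1, Stat2, each member called at 1.5-fold in any comparison, and the 10 abundant passing members with the largest change. From other lists, up to 6 genes past the threshold from 12 to 24 h are named, and the markers, the cytokine genes with a row, Ikbke, Myd88, Cgas, Ifnar1 and Ifnar2 were added after their values were seen. Overlaps and shared 100-base windows were computed from GENCODE M21 models on GRCm38, a different release from the authors'. Alternatives were DESeq2 1.42.0, its size factors, total counts, no filter, each library left out and a replicate block. The procedure was tested on simulated counts. Some genes of these lists are not reported here.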

Additional observations from a re-analysis of the deposited data

How the results depend on the processing

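Alternatives were run for the 64 member changes past the threshold and for the members' counts and medians, and none of these changed direction. Genes of the other lists, members that did not pass, library averages and promoter shares were not refitted. Scaling by DESeq2 size factors or total counts, and testing without a filter, left each of the 64 member changes past the threshold on its side. With DESeq2, 5 members rather than 8 were called higher from 12 to 24 h, and 3 rather than 5 were called lower at 12 h against the mean of 0 and 24 h. DESeq2 gave an adjusted p to 33 and 38 members in these comparisons, and Oas3, Xaf1 and Apol9a had none from 12 to 24 h. Of the changes with a value, 4 no longer passed under DESeq2, those of Ifit1 at 12 h against 0 h, Eif2ak2 and Xaf1 at 24 h against 0 h, and Gbp3 at 12 h against the mean. Same-numbered libraries of different time points correlated between -0.0744 and 0.131 in their deviations from the group means. Other-numbered libraries correlated between -0.125 and 0.120. No pairing by number was visible, though a weak one could be missed with so few libraries. With a replicate block 17 members, not 14, passed as lower at 12 h against 0 h, 16 as higher from 12 to 24 h and 19, not 18, as lower at 12 h against the mean, and no call was lost.

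Leaving out 1 library at a time gave these ranges. At 12 h against 0 h, 11 to 16 members passed as lower, 0 to 5 were called lower and 1 to 2 passed as higher, with a median log2 fold change of -0.29 to -0.17. At 24 h against 0 h, 5 to 11 passed as higher, 1 to 2 as lower, and 2 to 5 were called higher. From 12 to 24 h, 10 to 18 passed as higher, 0 to 1 as lower and 5 to 10 were called higher, with a median of 0.27 to 0.42. At 12 h against the mean, 12 to 17 passed as lower and 3 to 5 were called lower, with a median of -0.37 to -0.27. Over all alternatives, 11 of 15 changes at 12 h against 0 h, 4 of 13 at 24 h against 0 h, 9 of 17 from 12 to 24 h and 13 of 19 at 12 h against the mean stayed past the threshold in every fit that gave a value. Depth limits the genes under 1 CPM most, where 3 counts equal 0.0764 to 0.106 CPM.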
